A study of Mus musculus with 10 samples.

Results

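The integrated stress response genes with Gdf15 are 10 genes named by their symbols: Gdf15, Atf4, Ddit3, Atf3, Trib3, Sesn2, Ddit4, Asns, Hspa5 and Herpud1. They were found by symbol among the 27670 genes on the array, and 12 of its 41174 probes measure them. Trib3 and Sesn2 have 2 probes each, and the other 8 genes have 1. RNA was measured in whole lungs of 10 female BALB/c mice, aged 6 to 8 weeks on arrival, of which 5 breathed cigarette smoke and 5 breathed room air. The smoke group was exposed with the whole body to 12 reference cigarettes without filters for 50 min, 2 times a day on 5 days a week, over 8 weeks. The comparison of smoke with room air asks which lung transcripts differ after this exposure. Each mouse has 1 array, on which its RNA was read in the red channel against a reference RNA in the green channel. Values are log2 of red over green after background correction and normalization, so a log2 ratio of 0 means equal signal in lung and reference.

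When cells lack amino acids or haem, sense double-stranded RNA or hold misfolded protein in the endoplasmic reticulum, 1 of several kinases phosphorylates the translation factor eIF2alpha. General protein synthesis then slows while the messenger RNA of the transcription factor ATF4 is translated more. ATF4 raises genes for amino acid supply and for further factors, among them CHOP (encoded by Ddit3) and ATF3. Gdf15 encodes a secreted member of the transforming growth factor beta superfamily that acts on food intake through a receptor in the hindbrain, and it is a known target of ATF4, CHOP and p53. The endoplasmic reticulum has a wider programme, the unfolded protein response, to which Hspa5 and Herpud1 belong.

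In smoke-exposed lungs Gdf15 rose to 2.12-fold of its room air level, Atf3 to 1.43-fold and Herpud1 to 1.27-fold. The other 7 members did not pass the test, among them Atf4, whose log2 difference was -0.25. So 3 of 10 members were called higher and 0 lower, where 4.35% of all 41173 tested probes were called higher and 2.7% lower, 7.06% in either direction (limma, adjusted p under 0.05). Members are counted by their brightest probe, and over all 27669 genes counted that way 8.22% were called. With probes well above background in the lung channel on fewer than 5 arrays left out, 1402 of 19023 genes were called higher and 947 lower. All 10 members stayed in that fit, with 3 called higher and 0 lower. At an unadjusted p under 0.05 the fit of all probes gave 4 members higher and 1 lower, beside 18.2% of all tested probes and 19.9% of all genes in either direction. Over the 10 members the median log2 difference was 0.02, with 5 differences above 0 and 5 below, and over all genes it was -0.004. When the slide, which holds 1 smoke and 1 room air array of the same replicate number, entered the fit as a block, 5 members were called. Of these 3 were higher and 2 lower, beside 12.2% of all probes and 13.8% of all genes. The 2 added by the block were Atf4 and Ddit4, both lower with smoke. In 2 of 10 members, Gdf15 and Herpud1, the 5 smoke values and the 5 room air values did not overlap, which held for 6.89% of all probes.

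**Figure D1:**
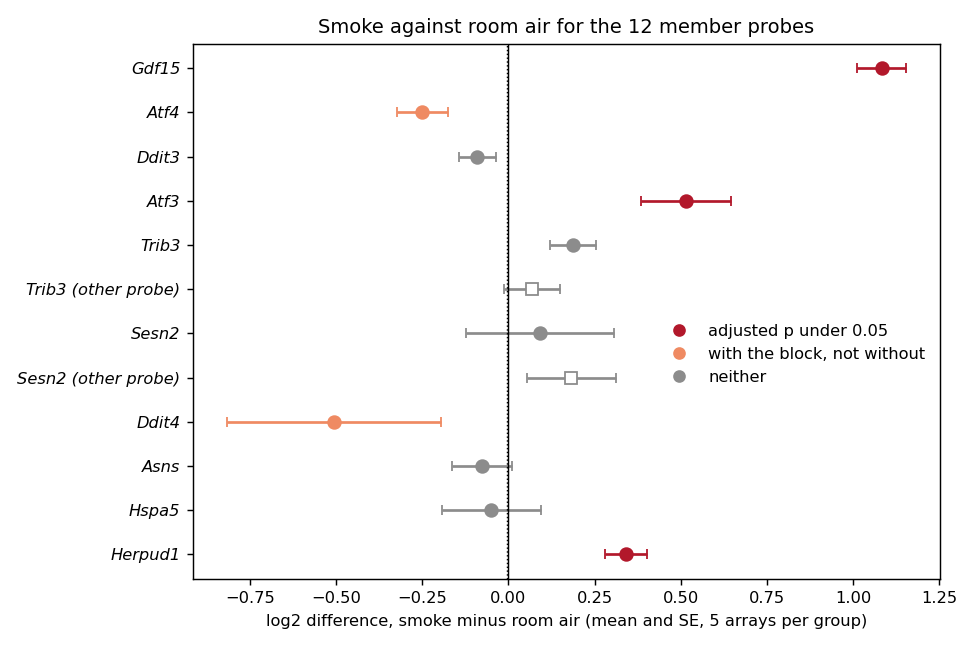
Log2 difference of smoke minus room air (x axis) for the 12 member probes, with the standard error as bars and 5 arrays per group. Filled circles are the brightest probe of each gene and open squares the second probe of Trib3 and Sesn2, dark red marks an adjusted p under 0.05, orange marks one under 0.05 with the slide as a block and not without it, and Gdf15 stands at 1.08, apart from the rest.

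The labelled tissue and the channels were checked first. Lung epithelial genes were far brighter in red than in green, by 6.39 log2 units for Sftpc, 6.72 for Scgb1a1 and 4.83 for Ager. The Y-linked genes Ddx3y, Eif2s3y and Kdm5d, which a female lung lacks, were bright in green, with mean log2 signals of 9.92, 9.76 and 8.12, and dim in red, with 2.97, 2.76 and 4.06. Red therefore carries female lung RNA and green a reference that holds male RNA. All 12 member probes were well above background in both channels on all 10 arrays, and none was saturated or marked as an outlier spot. Directions rest on the group names of the scanner files: each of the 286449 values in the authors' value table matches, within 1e-04, the scanner file of the opposite group with that replicate number, while 286 match the file of the same name. Which of the 2 assignments is right was not tested, and under the other one every direction given here would turn.

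Promoters are shown for the 4 members that hold a match to the element ATF4 binds with a C/EBP partner, for Hspa5 as the member with the classic endoplasmic reticulum stress element, and for Gdf15. The windows run from 250 bases before to 50 after a RefSeq start site (GRCm38.p6), and all 10 members have an entry. The first motif is TGATGNAAN, searched on both strands, and the other is CCAAT, 9 bases, CCACG, also on both strands. They are written 5′ to 3′ in the direction of the gene, with the matched bases in capitals. The window of Atf3 is chr1:191183284-191183583 on the minus strand, that of Herpud1 is chr8:94386179-94386478 on the plus strand, and that of Trib3 is chr2:152344011-152344310 on the minus strand. The window of Asns is chr6:7693160-7693459 on the minus strand, that of Hspa5 is chr2:34771840-34772139 on the plus strand, and that of Gdf15 is the first of its 2 windows, chr8:70632407-70632706 on the minus strand.
Atf3: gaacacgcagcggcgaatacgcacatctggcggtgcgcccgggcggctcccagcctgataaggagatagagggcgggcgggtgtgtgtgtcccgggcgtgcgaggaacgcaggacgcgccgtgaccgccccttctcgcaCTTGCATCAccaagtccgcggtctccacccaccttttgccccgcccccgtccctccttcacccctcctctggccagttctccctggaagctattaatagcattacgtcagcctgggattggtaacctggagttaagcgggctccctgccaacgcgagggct
Herpud1: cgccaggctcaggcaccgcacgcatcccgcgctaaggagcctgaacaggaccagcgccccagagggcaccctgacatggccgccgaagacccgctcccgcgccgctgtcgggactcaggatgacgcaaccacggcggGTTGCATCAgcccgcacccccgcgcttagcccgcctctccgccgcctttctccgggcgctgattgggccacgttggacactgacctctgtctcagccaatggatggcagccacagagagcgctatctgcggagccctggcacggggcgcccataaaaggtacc
Trib3: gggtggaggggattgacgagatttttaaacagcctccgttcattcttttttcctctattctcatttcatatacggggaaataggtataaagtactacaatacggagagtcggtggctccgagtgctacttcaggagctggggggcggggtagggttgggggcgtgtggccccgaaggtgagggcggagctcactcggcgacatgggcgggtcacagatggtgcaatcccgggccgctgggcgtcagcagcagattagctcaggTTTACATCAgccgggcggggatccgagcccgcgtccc
Asns: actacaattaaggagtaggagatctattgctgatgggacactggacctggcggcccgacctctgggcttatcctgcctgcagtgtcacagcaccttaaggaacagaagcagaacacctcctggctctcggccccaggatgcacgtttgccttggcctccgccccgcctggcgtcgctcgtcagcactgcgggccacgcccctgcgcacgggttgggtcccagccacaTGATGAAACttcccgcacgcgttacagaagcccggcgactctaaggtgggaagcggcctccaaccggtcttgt
Hspa5: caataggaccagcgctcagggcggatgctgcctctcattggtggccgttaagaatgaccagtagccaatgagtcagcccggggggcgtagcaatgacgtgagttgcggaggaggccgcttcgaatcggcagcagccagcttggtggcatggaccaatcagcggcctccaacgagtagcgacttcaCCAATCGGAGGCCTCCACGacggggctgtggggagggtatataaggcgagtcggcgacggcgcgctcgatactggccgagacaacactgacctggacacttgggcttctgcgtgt
Gdf15: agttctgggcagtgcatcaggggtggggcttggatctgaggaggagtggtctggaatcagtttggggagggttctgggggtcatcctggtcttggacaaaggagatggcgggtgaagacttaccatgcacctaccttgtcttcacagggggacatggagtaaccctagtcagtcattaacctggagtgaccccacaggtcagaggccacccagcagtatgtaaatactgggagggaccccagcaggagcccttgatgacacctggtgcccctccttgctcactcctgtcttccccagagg

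The C/EBP-ATF motif is in 3.95% of 32851 promoter windows in the table, in 4.5% of its 27025 genes and in 4 of the 10 members. The match lies 111 to 103 bases before the start site in Atf3, 113 to 105 before it in Herpud1, 23 to 15 before it in Asns, and in bases 14 to 22 of the transcript in Trib3. Atf3 and Herpud1, with smoke-lung calls, and Trib3 and Asns, without, all hold it. The endoplasmic reticulum element, in the 19-base form searched, is in 0.119% of windows and 0.137% of genes. It is in 1 of the 10 members, Hspa5, at 65 to 47 bases before the start. Other forms of this element were not searched, so a window without capitals may still hold one. Neither motif is in either window of Gdf15. A match is a run of letters and was not tested as a binding site, and these windows are short.

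Gdf15 is the secreted factor among the members. Its probe lies at chr8:69084712-69084771 on the minus strand (mm7, the array's own build). The log2 ratio was -1.62, -1.69, -1.64, -1.43 and -1.65 in room air replicates 1 to 5, and -0.44, -0.40, -0.68, -0.45 and -0.63 in smoke replicates 1 to 5. Every smoke value lay above every room air value, and room air replicate 4 was the highest of its group. The means were -1.60 ± 0.10 in room air and -0.52 ± 0.13 with smoke (SD, n = 5 each), a log2 difference of 1.08 (SE 0.07, limma, adjusted p = 6.22e-06). Within the 5 slides the difference was 1.19, 1.28, 0.96, 0.97 and 1.01, so smoke was higher on 5 of 5 slides. With the slide as a block the adjusted p was 7.03e-05. The difference lay in the lung channel: the mean log2 signal of red was 9.08 in room air and 10.22 with smoke, and that of green was 10.69 and 10.74. The log2 ratio was below 0 on each of the 10 arrays, so this probe gave less signal in lung than in the reference in both groups.

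**Figure D2:**
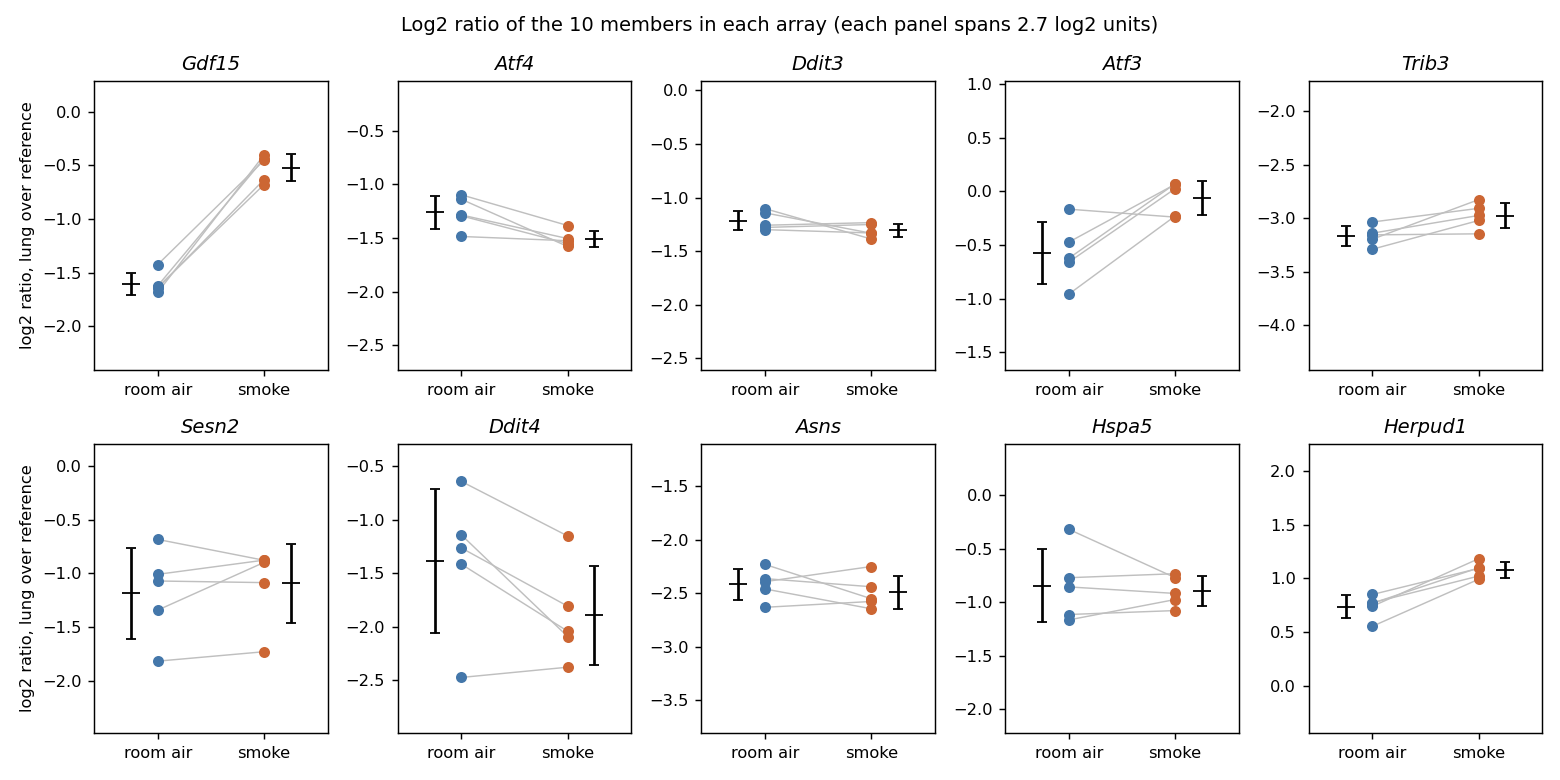
Log2 ratio of lung over reference (y axis) for the brightest probe of each member, 1 point per array, in room air (blue) and smoke (orange), with grey lines joining the 2 arrays of a slide and bars for the mean and SD of 5 arrays. Every panel spans the same number of log2 units, so the separation of the Gdf15 groups, the smaller one of Herpud1 and the wide spread of Ddit4 and Sesn2 can be compared.

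**Figure D3:**
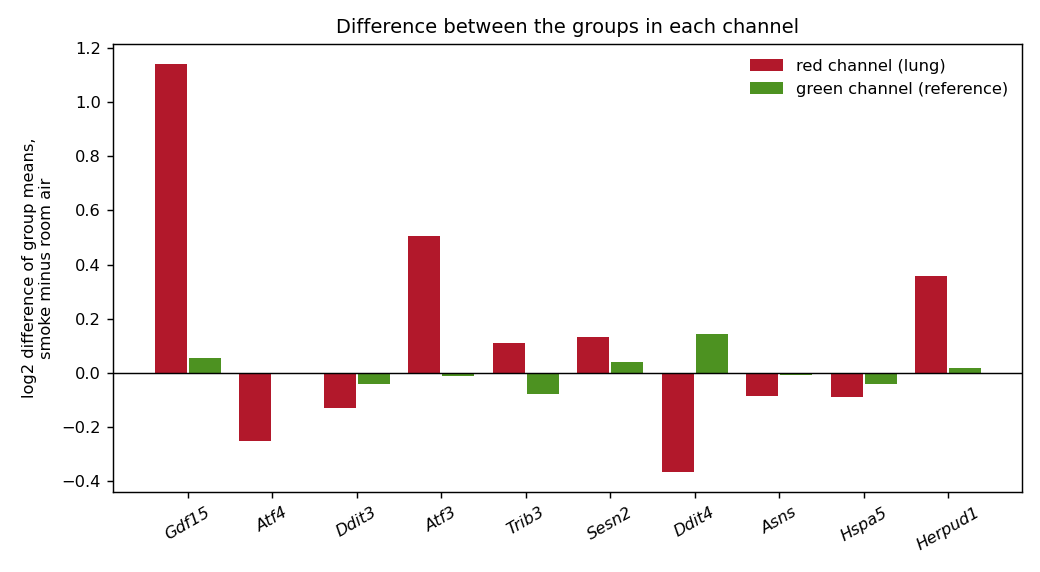
Difference of the group means of log2 signal, smoke minus room air (y axis), in the lung channel (red) and the reference channel (green) for the brightest probe of each member. For Gdf15, Atf3 and Herpud1 the red bars stand at 1.14, 0.50 and 0.36 and the green bars at 0.06, -0.01 and 0.02.

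Atf4 encodes the central transcription factor of the response, which is regulated mostly at translation, a step that RNA levels do not show. Its log2 ratio was -1.14, -1.29, -1.28, -1.49 and -1.10 in room air replicates 1 to 5, and -1.58, -1.55, -1.51, -1.53 and -1.38 in smoke replicates 1 to 5. The smoke values crowd at the low end, and the groups overlap through room air replicate 4, the lowest of its group. The log2 difference was -0.25 (SE 0.07) with an adjusted p of 0.0705 in limma, short of the threshold. Smoke was lower on 5 of 5 slides, by 0.04 to 0.44, and with the slide as a block the adjusted p was 0.033. Without room air replicate 4 the log2 difference was -0.31 and the adjusted p 0.0156. No setting made Atf4 RNA higher with smoke, apart from the authors' value table with its columns as labelled.

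Ddit3 encodes CHOP, which ATF4 induces and which drives cell death when stress lasts. Its log2 ratio ranged from -1.30 to -1.10 in room air and from -1.39 to -1.23 with smoke, so the groups overlap between -1.30 and -1.23. Its log2 difference was -0.09 (SE 0.05, adjusted p = 0.452), with smoke lower on 3 of 5 slides.

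Atf3 encodes a stress-inducible factor that also answers inflammatory and growth signals. Its log2 ratio was -0.17, -0.96, -0.62, -0.47 and -0.66 in room air replicates 1 to 5, and -0.24, -0.23, 0.07, 0.07 and 0.03 in smoke replicates 1 to 5. The 5 smoke values are high apart from room air replicate 1, which lies above smoke replicates 1 and 2, so the groups overlap. The log2 difference was 0.52 (SE 0.13), 1.43-fold, with an adjusted p of 0.0352 in limma and of 0.0233 with the slide as a block. Smoke was higher on 4 of 5 slides, by 0.54 to 0.73, and on the slide of replicate 1 the difference was -0.07. The Atf3 call depends on single arrays. It was lost without any 1 of 6 arrays, namely room air replicates 2, 3 and 5 (0.42, 0.50 and 0.49; adjusted p 0.0616, 0.0805 and 0.0768) and smoke replicates 3, 4 and 5 (0.48, 0.48 and 0.49; adjusted p 0.0852, 0.0831 and 0.0896). It was also lost, at log2 differences close to 0.52, with the scanner's own processed signals (0.55, adjusted p 0.0859) and with red alone (0.53, adjusted p 0.241, at the 75th percentile and 0.51, adjusted p 0.151, after quantile normalization). Without room air replicate 1 the log2 difference was 0.62 and the adjusted p 0.00352.

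Room air replicate 1, the high array for Atf3, was also the highest room air array for several marker lists. Its mean log2 ratio over 8 neutrophil genes was 3.34, where the other room air arrays lay between 1.87 and 2.19. Over 12 immediate-early genes, which react within minutes to many stimuli, it was -0.02, and the other room air arrays lay between -0.57 and -0.19. Over 8 NRF2 target genes it was -0.34, against -0.88 to -0.76 in the others. The part of these lists in the Atf3 value was not tested.

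Trib3, Sesn2 and Ddit4 act as brakes on growth signalling: Trib3 is a pseudokinase that binds AKT and ATF4, and Sesn2 and Ddit4 restrain mTORC1. The brightest Trib3 probe ranged from -3.29 to -3.03 in room air and from -3.14 to -2.83 with smoke, with smoke higher on 5 of 5 slides and the groups overlapping. Its log2 difference was 0.19 (SE 0.07, adjusted p = 0.143, and 0.081 with the block), which did not pass. The second Trib3 probe, 670 bases away, gave 0.07 (SE 0.08, adjusted p = 0.789).

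Both Sesn2 probes failed the test, and they did not follow each other across arrays. The brightest one ranged from -1.82 to -0.68 in room air and from -1.73 to -0.88 with smoke. Replicate 2 was its lowest value in both groups. It had a log2 difference of 0.09 (SE 0.22, adjusted p = 0.909). The other probe, 884 bases away, gave 0.18 (SE 0.13, adjusted p = 0.556), and smoke was higher on 5 of 5 slides. The correlation of the 2 probes over the 10 arrays was -0.486 for Sesn2 and 0.560 for Trib3, given as a description over arrays that share slides and the reference.

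Ddit4 encodes REDD1 and answers hypoxia and glucocorticoids as well as ATF4. Its log2 ratio was -1.41, -2.47, -0.64, -1.14 and -1.26 in room air replicates 1 to 5, and -2.04, -2.38, -1.15, -2.09 and -1.81 in smoke replicates 1 to 5. Values vary more between slides than between groups: replicate 2 is the lowest and replicate 3 the highest in both, and the groups overlap widely. The log2 difference was -0.51 (SE 0.31, adjusted p = 0.47). It moved most without room air replicate 2 (-0.78, adjusted p 0.092) and without room air replicate 3 (-0.32, adjusted p 0.731), the ends of the range over 10 single arrays left out. Within slides it was -0.63, 0.10, -0.51, -0.95 and -0.54, lower with smoke on 4 of 5. With the slide as a block the SE was 0.13 and the adjusted p 0.0373, so Ddit4 is called lower in that fit alone.

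Asns encodes asparagine synthetase, a classic ATF4 target whose promoter is shown above. Its log2 ratio ranged from -2.63 to -2.23 in room air and from -2.65 to -2.25 with smoke, nearly the same span. Smoke minus room air was -0.08 (SE 0.09, adjusted p = 0.771), with smoke lower on 3 of 5 slides. Fits without 1 array gave -0.14 to -0.03 (limma, adjusted p 0.456 to 0.927).

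Hspa5 and Herpud1 serve the endoplasmic reticulum. Hspa5 encodes BiP, its main chaperone, and ranged from -1.16 to -0.32 in room air and from -1.08 to -0.73 with smoke. The highest room air value was replicate 1, and the smoke values lie inside the room air span. Hspa5 had a log2 difference of -0.05 (SE 0.14, adjusted p = 0.929), and 0.08 (adjusted p 0.787) without room air replicate 1.

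Herpud1 encodes a membrane protein that helps clear misfolded proteins from the endoplasmic reticulum. Its log2 ratio was 0.85, 0.77, 0.74, 0.55 and 0.77 in room air replicates 1 to 5, and 1.09, 1.02, 1.18, 0.99 and 1.10 in smoke replicates 1 to 5. Every smoke value lay above every room air value, with room air replicate 4 and smoke replicate 4 the lowest of their groups. The log2 difference was 0.34 (SE 0.06), 1.27-fold, with an adjusted p of 0.00575 in limma and of 0.00403 with the slide as a block. Smoke was higher on 5 of 5 slides, by 0.24 to 0.44. When red was taken alone and set to its 75th percentile, Herpud1 had 0.36 and an adjusted p of 0.0764, and the call was lost.

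Gdf15 and Herpud1 are the 2 members with separated groups. With each gene's group means removed, their correlation over the 10 arrays was -0.806, the lowest among the 45 pairs of members. In the 5 smoke arrays alone it was -0.804. In the 5 room air arrays it was -0.874, which rests on replicate 4, high for Gdf15 and low for Herpud1, and without that array it was 0.384. Over both groups without that array it was -0.662, and these splits were chosen after seeing the data. The highest was 0.783, between Atf3 and Sesn2, and the median over the 45 pairs was 0.127. These are descriptions over arrays that share slides, the reference and the exposure, with 5 arrays in each group.

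Beyond the 10 members, 8 lists of pathway genes and the Gdf15 receptor list hold 100 genes, of which 99 were measured. In limma 11 of the 99 were called higher and 2 lower, 13.1%, and over all 27669 genes, each by its brightest probe, 1370 were called higher and 905 lower, 8.22%. Of all genes, 5037 were well above background in the lung channel on 0 arrays, against 0 of the 99. With probes well above background there on fewer than 5 arrays left out, 11 of 98 pathway genes were called higher and 2 lower. Beside them, 1402 of 19023 genes were called higher and 947 lower. The median log2 difference of the 99 genes was 0.02. At an unadjusted p under 0.05 there were 22 higher and 7 lower, 29.3%, beside 19.9% of all genes. Blocking by slide gave 23 calls, 18 higher and 5 lower, 23.2%, beside 13.8% of all genes. In the fit with no block, leaving out 1 array gave 9 to 19 calls. The 10 genes called with the block and not in the same fit without it are named in the paragraphs that follow, and they were chosen after their values were seen.

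Amino acid synthesis and one-carbon enzymes, which ATF4 is known to raise, had 3 of 10 genes called higher and 0 lower, with a median log2 difference of 0.30. Mthfd1l, a mitochondrial enzyme of one-carbon metabolism, rose by 0.90 (SE 0.11, adjusted p = 0.000526). Phgdh and Psat1, which catalyse successive steps of serine synthesis, rose by 0.82 (SE 0.14, adjusted p = 0.00442) and 0.61 (SE 0.07, adjusted p = 0.000266). Smoke was higher on 5 of 5 slides for each of the 3, and their groups did not overlap. With the slide as a block, Mthfd2 (0.49, adjusted p = 0.0336) and Aldh18a1 (0.46, 0.0313) were added as higher and Cth (-0.25, 0.0131) as lower. Among fits that leave out 1 array, Mthfd2 also passed without room air replicate 1 (0.0241) or smoke replicate 4 (0.0361), and Cth without room air replicate 3 (0.0424). Processing settings with no block also called Mthfd2 (0.0434 with a background offset of 10, 0.0195 in red alone after quantile normalization), Aldh18a1 (0.0381 with that offset, 0.0474 with the scanner's processed signals) and Cth (0.0231 with those signals). Asns, the member in the same branch of metabolism, did not pass, and the difference between Asns and these enzymes was not tested.

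Amino acid transporters had 2 of 9 genes called higher and 0 lower, with a median of 0.10. Slc7a11, the cystine and glutamate exchanger, had a log2 ratio of -0.82 ± 0.38 in room air and 1.20 ± 0.27 with smoke, a difference of 2.02 (SE 0.18, adjusted p = 6.51e-05). It was well above background in the lung channel on 2 of 5 room air arrays and on 5 of 5 smoke arrays, so its size depends on the background correction. The log2 difference was 3.26 with a background offset of 10 and 5.36 with the scanner's processed signals, and in red alone 5.22 at the 75th percentile and 2.07 after quantile normalization. Slc7a5, a carrier of large neutral amino acids, rose by 0.31 (SE 0.08, adjusted p = 0.0375). The Slc7a5 call was lost without any 1 of room air replicates 2, 3, 4 and 5 and smoke replicates 1, 2, 3 and 5, with log2 differences of 0.28 to 0.33 and adjusted p of 0.0626 to 0.0967. Slc1a5 (0.36, adjusted p 0.0675) passed when slides were blocked (0.0239) and when room air replicate 1 was left out (0.00116).

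Further ATF4 and CHOP target genes split, with 1 of 16 called higher, 1 lower and a median of -0.03. Stc2, a secreted glycoprotein, rose by 0.57 (SE 0.08, adjusted p = 0.00132). Vegfa, the vascular growth factor, fell by 0.65 (SE 0.07, adjusted p = 0.000202), lower on 5 of 5 slides. With the slide as a block, Ero1a (0.29, adjusted p = 0.0264) was added as higher and Atf5 (-0.55, 0.0022) as lower. Atf5 also passed without room air replicate 2 (0.027) and Ero1a without smoke replicate 4 (0.0491).

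Among the eIF2alpha kinases, phosphatases and eIF2B subunits, the machinery that starts and ends the response, 1 of 12 genes was called higher, 0 lower, and the median was -0.01. Eif2b2, a subunit of the exchange factor that eIF2alpha phosphorylation inhibits, rose by 0.24 (SE 0.06, adjusted p = 0.0312). That call was lost without any 1 of room air replicates 2, 3 and 5 and smoke replicates 1, 2, 3 and 5, with log2 differences of 0.22 to 0.25 and adjusted p of 0.0615 to 0.0838. Ppp1r15a, the stress-induced phosphatase subunit that ends the response, had a log2 difference of -0.27 and an adjusted p of 0.113, and 0.021 with the slide as a block.

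Cytosolic aminoacyl-tRNA synthetases, which load amino acids onto transfer RNAs, had 1 of 18 genes called higher and 0 lower, with a median of 0.08. Qars1 rose by 0.30 (SE 0.06, adjusted p = 0.0117). Its call was lost in 3 of 19 alternative fits, the exact Wilcoxon test among them, and in 0 of the 10 without 1 array. With all arrays kept, the settings gave 0.26 to 0.33. With the slide as a block, Cars1 (0.24, adjusted p = 0.046) and Nars1 (0.23, 0.031) were added. Cars1 also passed without room air replicate 1 (0.00509) and Nars1 without smoke replicate 4 (0.0264).

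Unfolded protein response sensors and chaperones of the endoplasmic reticulum had 1 of 16 genes called higher and 0 lower, with a median of -0.04. Sdf2l1, which works with BiP, rose by 0.39 (SE 0.08, adjusted p = 0.0143). The Sdf2l1 call was lost in 2 of 19 alternative fits, the exact Wilcoxon test among them, and in 0 of the 10 without 1 array. With all arrays kept, the settings gave 0.39 to 0.48. Dnajb9, another BiP partner, had a log2 difference of 0.26 and an adjusted p that rounds to 0.05 and did not pass, and it passed when slides were blocked (0.0381). Its adjusted p was 0.00542 when room air replicate 1 was left out and 0.0477 when dim probes were. Endoplasmic-reticulum-associated degradation, the process Herpud1 serves, had 2 of 10 genes called higher and 0 lower, with a median of 0.04.

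The 2 degradation genes were Derl3 and Derl2, membrane proteins of the export channel. Derl3 rose by 0.38 (SE 0.09, adjusted p = 0.0258), and its call was lost without any 1 of smoke replicates 2, 3, 4 and 5, with log2 differences of 0.35 to 0.38 and adjusted p of 0.0531 to 0.0646. Derl2 rose by 0.19 (SE 0.05, adjusted p = 0.0446), and its call was lost without any 1 of room air replicates 2, 3 and 5 and smoke replicates 1, 2, 4 and 5, with log2 differences of 0.17 to 0.20 and adjusted p of 0.0728 to 0.109. For both genes the groups did not overlap.

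Mitochondrial stress genes had 0 of 7 called higher and 1 lower, with a median of -0.03. The 1 was Dele1, which relays mitochondrial stress to an eIF2alpha kinase, and it fell by 0.33 (SE 0.06, adjusted p = 0.00776). The Dele1 call was lost in 4 of 19 alternative fits, the exact Wilcoxon test among them, and in 0 of the 10 without 1 array. With all arrays kept, the settings gave -0.35 to -0.28. Of the Gdf15 receptor pair, Gfral had no tested probe under its name. Ret was well above background in the lung channel on 1 array of each group and did not pass.

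**Figure D4:**
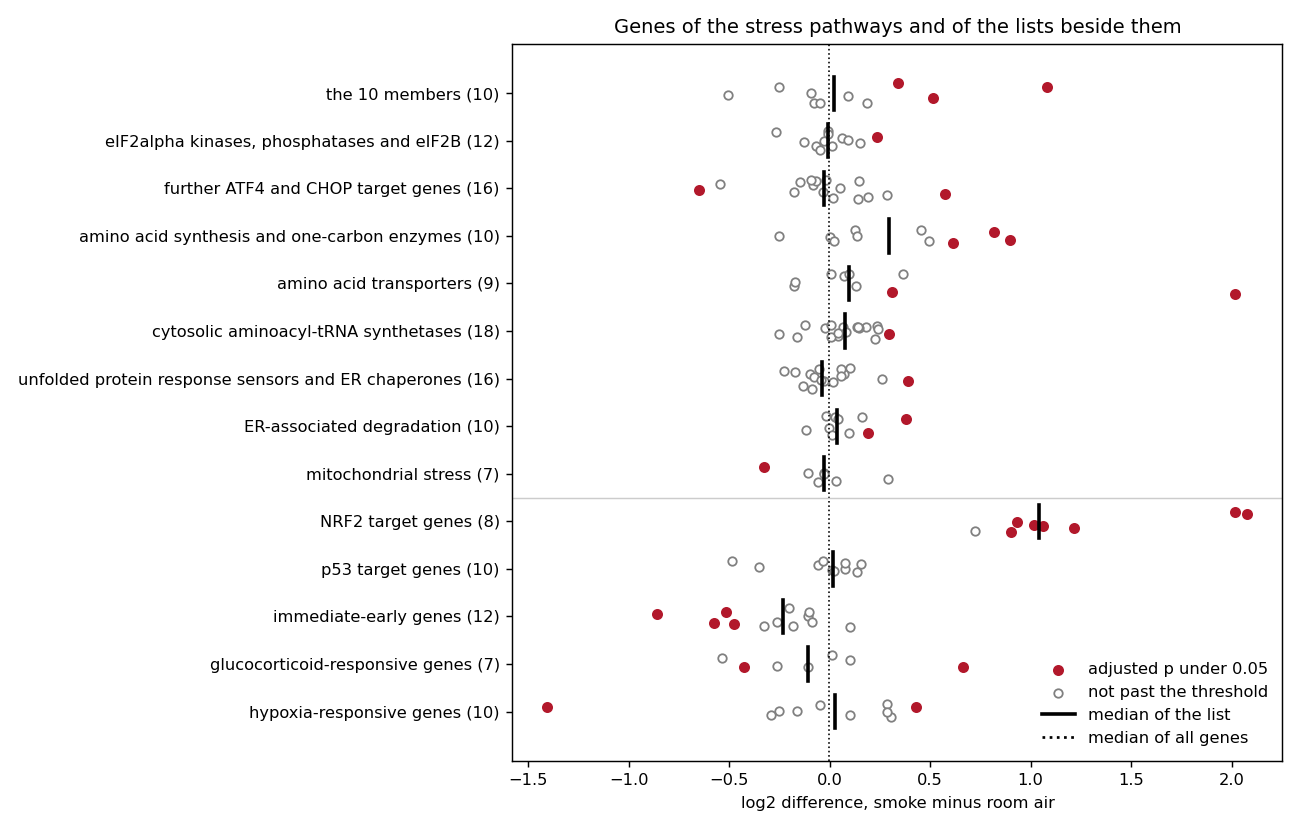
Log2 difference of smoke minus room air (x axis) for each measured gene of the pathway lists (above the grey line) and of the lists beside them (below it), 1 point per gene, with the number of genes in parentheses. Filled points passed an adjusted p of 0.05, black bars are list medians and the dotted line is the median of all genes, -0.004. Most stress lists sit near it, and the NRF2 list, with a median of 1.04, lies to its right.

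Other stress programmes were read on the same arrays for comparison of the counts. NRF2 target genes, the antioxidant programme that electrophiles induce, had 7 of 8 genes called higher and 0 lower, with a median log2 difference of 1.04. Nqo1 rose by 2.08 (SE 0.09, adjusted p = 2.49e-07) and Txnrd1, the brightest of the list, by 1.22 (SE 0.16, adjusted p = 0.000802). Slc7a11, named above, is in this list too. Of 10 p53 target genes, the programme of DNA damage that also includes Gdf15, 0 were called in limma, with 1 lower at an unadjusted p under 0.05 and 1 lower with the slide as a block. Their median was 0.02, and the brightest, Phlda3, had -0.06 (SE 0.06, adjusted p = 0.726).

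Immediate-early genes had 0 of 12 called higher and 4 lower, with a median of -0.23. Klf4 fell by 0.86 (SE 0.09, adjusted p = 0.000197), Jun by 0.52 (SE 0.08, adjusted p = 0.002) and Dusp1 by 0.57 (SE 0.14, adjusted p = 0.0286). The remaining gene, Ier2, named after its values were seen, fell by 0.48 (SE 0.11, adjusted p = 0.0182), and its call was lost without room air replicate 3 (-0.44, adjusted p 0.0503). In all, the Ier2 call was lost in 5 of 19 alternative fits, that one and the exact Wilcoxon test among them. With all arrays kept, the settings gave Ier2 -0.48 to -0.35. The Dusp1 call was lost without any 1 of room air replicates 2 and 3 and smoke replicates 3, 4 and 5, with log2 differences of -0.56 to -0.49 and adjusted p of 0.0647 to 0.071. Atf3, which shares many inducers with this group, was the member called in the other direction. The difference between Atf3 and these genes was not tested.

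Glucocorticoid-responsive genes had 1 of 7 measured genes called higher and 1 lower, with a median of -0.11, and Zbtb16 had no tested probe under its name. Fkbp5 rose by 0.66 (SE 0.12, adjusted p = 0.00511) and Tsc22d3 fell by 0.43 (SE 0.11, adjusted p = 0.0397). The Fkbp5 call was lost in 2 of 19 alternative fits, the exact Wilcoxon test among them, and in 0 of the 10 without 1 array. With all arrays kept, the settings gave Fkbp5 0.66 to 0.91. The Tsc22d3 call was lost without any 1 of room air replicates 1, 2, 3 and 4 and smoke replicates 2, 3, 4 and 5, with log2 differences of -0.46 to -0.37 and adjusted p of 0.0571 to 0.0969. The brightest gene of the list, Cebpd, had -0.11 (SE 0.35, adjusted p = 0.939). Hypoxia-responsive genes had 1 of 10 called higher and 1 lower, with a median of 0.03. Adm, a vasodilator peptide, fell by 1.40 (SE 0.19, adjusted p = 0.00107), Ndrg1 rose by 0.43 (SE 0.07, adjusted p = 0.00315), and the brightest, Pfkfb3, had -0.29 (SE 0.17, adjusted p = 0.422). For Pfkfb3, fits without 1 array gave -0.40 to -0.14 (limma, adjusted p 0.179 to 0.633). Both lists stand beside Ddit4, which answers both signals, and their part in its value was not tested.

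Markers of several cell types also differed between the groups, and in whole lung more cells of a type cannot be told apart from more RNA per cell. Alveolar macrophage genes had 5 of 7 measured genes called higher and 0 lower, with a median log2 difference of 1.34. Ear2 had no tested probe under its name. Marco rose by 2.60 (SE 0.41, adjusted p = 0.00248), Cd68 by 2.06 (SE 0.06, adjusted p = 6.92e-09) and Chil3, the brightest of the list, by 2.12 (SE 0.21, adjusted p = 0.000138). The mean log2 ratio over the 7 genes was 2.79, 2.44, 2.49, 2.43 and 2.25 in room air replicates 1 to 5, and 3.79, 3.74, 4.03, 3.67 and 3.77 in smoke replicates 1 to 5. The 2 groups are apart on this list as they are for Gdf15. Its summed red signal was 31463, 28695, 29431, 26645 and 24435 in room air replicates 1 to 5, and 102107, 108844, 105606, 94613 and 104995 in smoke replicates 1 to 5. The part of these cells in the values of Gdf15, Atf3 and Herpud1 was not tested.

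Neutrophil genes had 2 of 8 called higher and 0 lower, with a median of 0.34. Mmp8 rose by 1.16 (SE 0.26, adjusted p = 0.021) and Camp, well above background in red on 4 of 5 room air arrays, by 0.60 (SE 0.12, adjusted p = 0.00881), and the brightest, S100a9, had 0.16 (SE 0.25, adjusted p = 0.852). Other settings gave Camp a log2 difference of 1.10 with a background offset of 10, 2.30 with the scanner's processed signals and 1.80 in red alone at the 75th percentile, where the adjusted p was 0.0756. The Mmp8 call was lost without any 1 of room air replicates 2, 3 and 5 and smoke replicate 1, with log2 differences of 1.08 to 1.13 and adjusted p of 0.0523 to 0.0562. The mean summed red signal of the list was 40731 ± 41472 in room air and 40467 ± 8725 with smoke (SD, n = 5 each). The room air mean rests on replicate 1, with 114669 where the other 4 arrays lay between 18105 and 27012. Without that array, a comparison chosen after seeing the data, it was 22247 ± 3925 (SD, n = 4).

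Fibroblast and smooth muscle genes had 0 of 6 called higher and 3 lower, with a median of -0.32. Pdgfra fell by 0.49 (SE 0.04, adjusted p = 5.95e-05), Dcn by 0.49 (SE 0.10, adjusted p = 0.0107) and Acta2, the brightest, by 0.45 (SE 0.09, adjusted p = 0.00897). Their summed red signal was 57345 ± 6379 in room air and 46598 ± 4084 with smoke (SD, n = 5 each). The Acta2 call was lost in 2 of 19 alternative fits, the exact Wilcoxon test among them, and in 0 of the 10 without 1 array. With all arrays kept, the settings gave Acta2 -0.45 to -0.39.

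Endothelial genes had 0 of 6 called higher and 1 lower, with a median of -0.15. Pecam1 fell by 0.41 (SE 0.11, adjusted p = 0.0488), and its call was lost without any 1 of room air replicates 2, 3 and 5 and smoke replicates 1, 2, 4 and 5, with log2 differences of -0.43 to -0.33 and adjusted p of 0.0761 to 0.119. In red alone Pecam1 had -0.78 (adjusted p 0.0261) at the 75th percentile and -0.76 (adjusted p 0.0107) after quantile normalization. The brightest, Cldn5, had -0.12 (SE 0.10, adjusted p = 0.654), and -0.75 (adjusted p 0.011) and -0.82 (adjusted p 0.00101) in red alone at the 75th percentile and after quantile normalization. The summed red signal of the 6 genes was 106379 ± 8241 in room air and 71790 ± 3388 with smoke (SD, n = 5 each). That sum is not set against the reference. As a log2 ratio to the reference, the mean over the 6 genes was 5.00 ± 0.13 in room air and 4.81 ± 0.20 with smoke. Those ratios overlapped, from 4.82 to 5.19 in room air and from 4.51 to 5.01 with smoke. Whether the lower red signal reflects the lung RNA was not tested.

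Of 8 epithelial genes 0 were called, with a median of 0.02, a log2 difference of -0.13 (SE 0.19, adjusted p = 0.838) for the brightest, Sftpc, and a summed red signal of 957351 ± 106937 in room air and 897579 ± 144606 with smoke. Of 6 lymphocyte genes 0 were called, with a median of 0.08, a log2 difference of 0.09 (SE 0.21, adjusted p = 0.907) for the brightest, Ms4a1, and a summed red signal of 2001 ± 436 and 2203 ± 192. Of 3 erythrocyte genes 0 were called, with a median of 0.16, a log2 difference of 0.31 (SE 0.29, adjusted p = 0.699) for the brightest, Hbb-b1, and a summed red signal of 701331 ± 98113 and 862927 ± 112040. For Hbb-b1, fits without 1 array gave 0.12 to 0.49 (limma, adjusted p 0.433 to 0.901). In limma these 3 lists have no call in either direction, with 0, 1 and 0 genes at an unadjusted p under 0.05 and 0, 1 and 0 called with the slide as a block. Of 4 liver and cardiac muscle genes, read as a check for neighbouring tissue, 0 were called higher and 1 lower, with a median of -0.26 and a summed red signal of 16112 ± 3143 in room air and 10612 ± 1175 with smoke (SD, n = 5 each in these lists). That gene, Tnnt2, the brightest, fell by 0.41 (SE 0.11, adjusted p = 0.0493), and its call was lost without any 1 of room air replicates 1, 2, 3 and 4 and smoke replicates 1 to 5, with log2 differences of -0.45 to -0.35 and adjusted p of 0.0592 to 0.119. In red alone Tnnt2 had -0.62 (adjusted p 0.0851) at the 75th percentile and -0.64 (adjusted p 0.0361) after quantile normalization.

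The genes whose pattern over the 10 arrays was most like that of Gdf15 were sought among 17129 genes well above background in the lung channel on each array. Among the nearest by Pearson's r of the log2 ratio were Pparg (0.992), Entpd5 (0.988), H2ac13 (0.988) and Trem2 (0.987). These r rest mostly on the step between the groups, since with the group means removed they were 0.740, 0.773, 0.763 and 0.481. Pparg encodes a nuclear receptor, Trem2 encodes a receptor of myeloid cells, Entpd5 encodes a nucleotide hydrolase of the endoplasmic reticulum, and H2ac13 encodes a histone.

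Their higher values with smoke follow from how they were chosen, since Gdf15 itself steps up between the groups, and are given for their size. Pparg rose by 0.78 (SE 0.04, adjusted p = 1.76e-06) and Entpd5 by 0.64 (SE 0.06, adjusted p = 7.84e-05). H2ac13 rose by 1.02 (SE 0.08, adjusted p = 3.22e-05) and Trem2 by 3.03 (SE 0.08, adjusted p = 3.45e-09). Among the members, r with Gdf15 was 0.814 for Herpud1, 0.757 for Atf3 and 0.747 for Trib3, ranks 1002, 1372 and 1448 of the 17129, and it was -0.822 for Atf4, rank 16490. So Herpud1, the nearest member, stood behind the 4 genes above and many others. With the group means removed, r was -0.806 for Herpud1, -0.0496 for Atf3, 0.442 for Trib3 and -0.658 for Atf4. The nearness of Herpud1 to Gdf15 thus rests on the step between the groups. The r values describe arrays that share slides, the reference and the exposure, and no p is given.

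**Figure D5:**
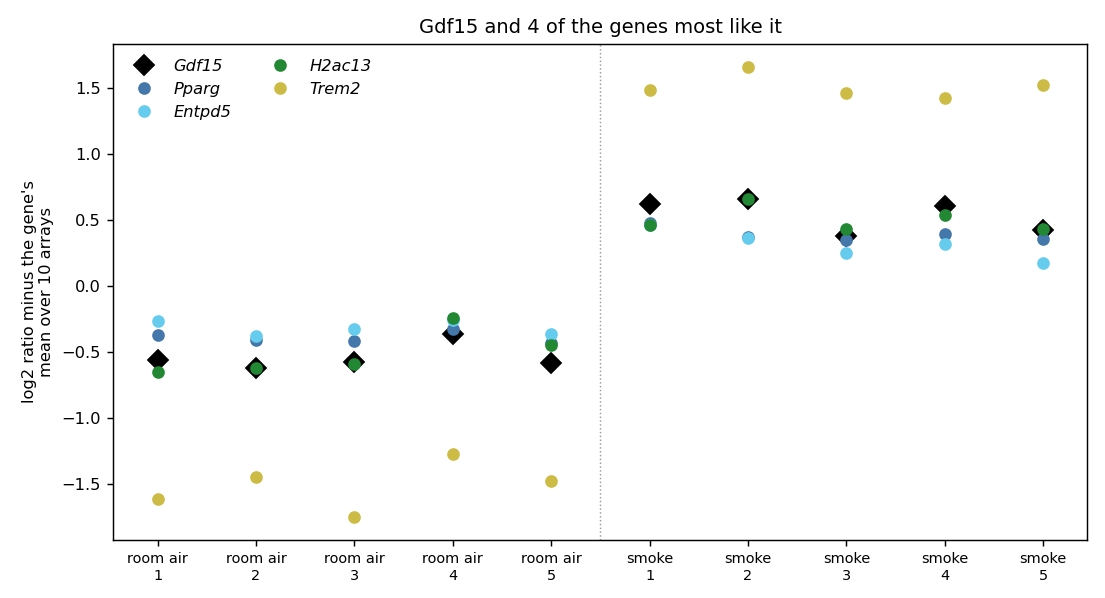
Log2 ratio minus the gene's own mean over 10 arrays (y axis) for Gdf15 (black diamonds) and 4 of the genes most like it, 1 point per array, with room air left and smoke right of the dotted line. Each gene has its room air values below 0 and its smoke values above 0, with the widest step, 3.03, in Trem2.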

How the data were processed

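The members and lists were chosen with earlier results of these data known. Per the file headers, the 10 scanner files hold 2 channels extracted with Agilent Feature Extraction 9.5.3.1, whereas the labels name version 9.1 and a single dye. Signals and local backgrounds are intensities per the file headers, processed signals were made from them by the scanner software, and its ratios are log10 per the file headers. The authors' value table is on a log2 scale, made by the authors from both channels (mean log2 of background-subtracted median signals). Its groups are exchanged relative to the scanner files.

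Here both channels were corrected by normexp (offset 50) and loess within arrays, spots with an outlier mark were dropped, and spots were averaged per probe. limma 3.58.1 in R 4.3.3 compared smoke with room air, with Benjamini-Hochberg adjustment over 41173 probes and a threshold of 0.05. A gene is its brightest probe in red. Of 41174 probes, 22951 were named by accession, 6659 by current symbol, 3109 by synonym and 8455 by the file's own name.

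The 5 slides, scanned on 4 days, each hold the smoke and the room air array of 1 replicate number, in fixed places, so place and group cannot be told apart. With group means removed, arrays of the same number correlated at 0.157 to 0.550 over probes, and other pairs at -0.377 to 0.205 (median -0.124), so a blocked fit is given beside the unblocked one.

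Named are the 10 members, pathway genes that passed (at most 4 a list), the brightest and at most 3 called genes of the other lists, and the 5 genes most like Gdf15, of which 1 is not reported here. Ier2 and the 10 pathway genes called with the block alone of the 2 fits were named after their values were seen.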

Additional observations from a re-analysis of the deposited data

Results flagged for a closer look

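In 8 of 134 groups of 5 arrays (5.97%), 1 array stood apart from the other 4: its gap to the nearest value, divided by the whole range, was above Dixon's critical value of 0.71. Chance alone gives about 1 in 20 such groups.

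Among the members, Gdf15 was high in room air replicate 4 (ratio 0.765), at a log2 ratio of -1.43 where the others lay between -1.69 and -1.62. Without that array the log2 difference was 1.13 (limma, adjusted p = 9.9e-06). Sesn2 was low in smoke replicate 2 (ratio 0.755), at -1.73 where the others lay between -1.09 and -0.88, and without that array its log2 difference was 0.25 (adjusted p = 0.613).

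Room air replicate 1 accounts for 3 of the 8. Txnrd1 was high there (ratio 0.77), at -0.04 against -1.01 to -0.79, Fkbp5 was high (ratio 0.816), at -0.87 against -1.34 to -1.26, and Mmp8 was high (ratio 0.885), at 2.31 against 0.99 to 1.14. Without that array the log2 differences were 1.39, 0.75 and 1.41, each with an adjusted p under 0.05.

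Tsc22d3 was low in room air replicate 5 (ratio 0.843), at 2.69 against 3.00 to 3.05. Marco was low in smoke replicate 4 (ratio 0.821), at 4.97 against 5.92 to 6.13. In that array the green signal of Marco was 1.01 log2 units above the mean of the others and the red signal 0.09 below. Pdgfra was high in smoke replicate 5 (ratio 0.72), at 0.84 against 0.71 to 0.74.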

How the results depend on the processing

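Gdf15 kept its direction and its call in 19 of 21 alternatives, with a log2 difference of 1.05 to 1.13 when 1 array was left out. The exceptions were the exact Wilcoxon test (1.08, adjusted p 0.115, where the smallest exact p is 0.00794) and the authors' value table with its columns as labelled. In that table the differences were -0.57 for Gdf15, -0.19 for Atf3, 0.19 for Atf4, 0.15 for Ddit3, 0.13 for Ddit4, 0.0763 for Asns, -0.0408 for Sesn2, 0.0519 for Hspa5 and -0.14 for Herpud1. By its construction the groups are exchanged there relative to the scanner files. Trib3 kept its sign there, at 0.0398, and was not called. There, 35 of 35 other named genes with a call and a value had the opposite sign.

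Against 2906 called probes, 1892 were called with the scanner's processed signals, 1759 with red alone scaled to the 75th percentile, 5019 with the slide as a block, 13 in the value table, 0 by Wilcoxon after adjustment (5446 at an unadjusted p under 0.05), and 2102 to 3660 without 1 array. Against 3 called members, 1 was called with red alone at the 75th percentile, 5 with the block, 0 by Wilcoxon, 0 in the value table, and 2 to 4 without 1 array. Against 13 pathway genes, settings chosen after seeing the data gave 6 with red alone at the 75th percentile, 0 by Wilcoxon and 9 to 19 without 1 array, and the block gave 23.

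When 1 array was left out, the log2 difference ranged from -0.0674 to 0.25 for Sesn2, -0.13 to 0.0820 for Hspa5, -0.26 to 0.28 for Cebpd, -0.0170 to 0.33 for S100a9, -0.26 to 0.0197 for Sftpc and -0.0225 to 0.27 for Ms4a1, and Sftpc had 0.16 with red alone at the 75th percentile. None of these 6 was called. The cause of each change was not tested. Of 37 other named genes with a call, 10 lost it without some 1 array, 0 with the block and 16 in at least 1 setting other than the Wilcoxon test, which called 0 of all probes after adjustment and so says nothing about these genes in particular. The median of all probes stayed within 0.1 of 0 in every setting. All 12 member probes were well above background on all 10 arrays, with red at least 3.86 times background, and whether signal limits their calls was not tested.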
